A study of Homo sapiens with 6 samples.

Results

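Cyclic AMP phosphodiesterases are the enzymes that end a cAMP signal, and the 10 genes described here are the PDE3, PDE4, PDE7 and PDE8 genes of the human genome (PDE3A, PDE3B, PDE4A, PDE4B, PDE4C, PDE4D, PDE7A, PDE7B, PDE8A and PDE8B). They were taken by symbol from tables of 31122 genes with read counts and 34977 genes with FPKM values. Of the 10, 9 had a row in the count table, 7 held enough counts to be tested, and PDE3A was listed in the FPKM table alone. Polyadenylated RNA was sequenced from 6 cultures of the breast cancer line MDA-MB-468, which is established, basal-like and negative for the 3 receptors used to class breast tumours. The group labelled GPR52 KO held, per the labels and the series' design text, 3 populations made with CRISPR-Cas9 from 1 GPR52-directed guide, titled 11, 12 and OG and called KO-labelled 1, 2 and 3 here. The group labelled WT held 3 wells of unedited cells from 1 plate, called parental-labelled 1, 2 and 3. Both groups were otherwise the same line and the labels name no added agent. Whether each edited population is 1 clone or a pool is not stated. Nothing in the labels says that libraries of a group come from unrelated cultures. P-values thus measure the spread between these libraries, which may be technical. That spread is unlike in kind, between edited populations in 1 group and between wells of 1 plate in the other. The test of the counts used 1 shared estimate of it per gene. No non-targeting control was analysed here, so editing, selection and time in culture cannot be told apart from the label.

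Adenylyl cyclases make cAMP when a receptor engages the stimulatory G protein, protein kinase A and a few other effectors read it, and phosphodiesterases hydrolyse it to AMP. PDE4, PDE7 and PDE8 act on cAMP and not on cGMP. PDE3 hydrolyses both and is inhibited by cGMP. PDE4 enzymes are the targets of rolipram and roflumilast and are activated in their long forms by protein kinase A, whereas PDE7 and PDE8 bind cAMP with high affinity and are not blocked by rolipram. GPR52, the edited gene, encodes an orphan receptor that raises cAMP through the stimulatory G protein, which is why the enzymes that remove cAMP are of interest in this design.

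Total counts ran from 25983764 to 27956600 in KO-labelled libraries and from 25637794 to 31692454 in parental-labelled ones. In CPM, the count scaled to the normalised library size (TMM), 1 count was worth 0.0321 to 0.0397. The median SD of log2 CPM over all tested genes was 0.187 in KO-labelled and 0.0858 in parental-labelled libraries. P-values and confidence intervals from the shared estimate do not show this difference. GPR52 was read beside the labels, and its transcript level went against them. Transcript level alone does not show which cells were edited, and whether the labels of the 2 groups are exchanged was not tested. GPR52 reached the count test through the KO-labelled group alone. It had 645, 694 and 724 counts in the libraries labelled GPR52 KO, against 9, 1 and 0 in those labelled parental (log2 fold change 7.70, SE 0.35; edgeR quasi-likelihood test, adjusted p = 4.1e-06). Its host gene RABGAP1L had a log2 fold change of -0.60 (SE 0.08). Every direction below is therefore that of the libraries labelled KO, which held more GPR52 transcript, relative to the libraries labelled parental, which held almost none. KO-labelled 3 stood apart from the other KO-labelled libraries for several members, and results that rest on it are given with and without it. Epithelial markers summed to 4352 to 5083 CPM in KO-labelled and 5139 to 5657 CPM in parental-labelled libraries, and basal breast markers to 6232 to 9905 and 6289 to 6592 CPM. The basal sum was mostly EGFR, with 8307 CPM in KO-labelled 3, and KRT5. Single markers of these lists went both ways in the edgeR test. EPCAM (log2 fold change 0.46), KRT5 (0.51) and KRT14 (1.90) were called higher, and CDH1 (-0.42), KRT18 (-0.46) and CDH3 (-0.76) lower. Of the receptors that are low in triple-negative lines, PGR had no count row, and the list summed to 104 to 132 CPM in KO-labelled and 130 to 135 CPM in parental-labelled libraries, mostly ERBB2. ESR1 had 93, 94 and 43 counts in KO-labelled libraries, against 305, 238 and 268 counts in parental-labelled ones. Summed levels of fibroblast markers were 23.4 to 27.9 CPM in KO-labelled and 6.52 to 8.42 CPM in parental-labelled libraries, nearly all of it COL1A1, and DCN had no count row. Immune markers reached 2.46 to 4.07 CPM in KO-labelled and 27.3 to 37.1 CPM in parental-labelled libraries, nearly all of it CD14. Endothelial markers held 0.750 to 1.39 CPM in KO-labelled and 1.62 to 1.75 CPM in parental-labelled libraries, and PECAM1 had no count row. The part of these marker differences in the results below was not tested.

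Promoter sequence is shown first because several PDE genes are known to respond to cAMP through CREB, which binds the cAMP response element TGACGTCA. RefSeq start sites (GRCh38.p14) gave 32 windows for 8 of the members, each from 250 bases before to 50 after a start. PDE3B and PDE7A had no window here and were not searched. The element was searched on both strands together with its core TGACG. The full element, which contains a core on each strand, was in 2 of the 32 windows, and in 1.85% of the 35116 windows of all genes. The core was in 4 of the 32 and in 24.6% of all windows. The 2 windows with the full element belong to PDE7B and PDE4A, and the stretches around it are printed with every core in capitals on either strand, so that the full element is a run of 8 capitals.
PDE7B: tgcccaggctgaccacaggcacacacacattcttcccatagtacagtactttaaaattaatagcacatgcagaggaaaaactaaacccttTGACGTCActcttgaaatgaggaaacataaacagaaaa
PDE4A: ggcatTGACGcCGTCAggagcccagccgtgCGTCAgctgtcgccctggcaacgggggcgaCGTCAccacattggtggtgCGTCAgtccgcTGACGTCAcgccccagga
The PDE7B stretch is chr6:135851456-135851583 on the plus strand and its element begins 155 bases before the start. The PDE4A stretch is chr19:10416680-10416787 on the plus strand, its element begins 3 bases before the start, and it holds 7 cores. PDE4B had 6 windows, PDE8B 4 and PDE8A 3, and neither the element nor its core is in the letters of these windows. PDE4D had the core in 1 of 8 windows and PDE4C in 1 of 4. PDE4A had the element and all its cores in 1 of 5 windows, and PDE7B had them in its only window. Which start is used in these cells was not tested. Whether these letters bear on the transcript levels below was not tested.

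Setting the KO-labelled against the parental-labelled libraries asks how the transcripts of these enzymes differ between the 2 labels, whichever of them holds the edited cells. PDE8B, PDE4D, PDE4A, PDE8A and PDE7A were higher in KO-labelled libraries and no tested member was called lower. PDE8B had the largest difference, 8.27-fold, and PDE4D, PDE4A, PDE8A and PDE7A were 2.70-fold, 1.84-fold, 1.57-fold and 1.30-fold higher in the edgeR fit. PDE4B and PDE7B did not pass the test. PDE3B and PDE4C were near 0 in all libraries. The 5 called members of 7 tested stand beside a background of 40.8% of all 17420 tested genes called in either direction, 21.0% called higher and 19.8% called lower. The groups did not overlap for 6 of the 7, each higher in KO-labelled libraries, where 27.4% of tested genes did not overlap in that direction and 54.4% in either. The median log2 fold change of the 7 was 0.88, against 0.01 over all tested genes. The members were chosen with earlier results of these data known. PDE7B had 8, 9 and 12 counts in parental-labelled libraries and reached the test through the KO-labelled group, so these counts are descriptions of the members that passed the filter. The same 5 members were called with DESeq2 size factors (beside 40.9% of genes in either direction), library totals (40.9%), no filter on low counts (22.0%), a filter of 1 CPM in 3 libraries (44.1%), DESeq2 (32.0%) and limma voom (40.7%). They were also called without KO-labelled 1 (37.2%), without KO-labelled 2 (34.5%, and PDE7B in addition), without KO-labelled 3 (52.6%, and PDE4B, lower, in addition) and without parental-labelled 1 (27.7%). Without parental-labelled 2 (27.3%) and without parental-labelled 3 (29.6%) PDE7A was lost and the other 4 were called. In bulk RNA, more cells that express a gene and more RNA per cell cannot be told apart.

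**Figure D1:**
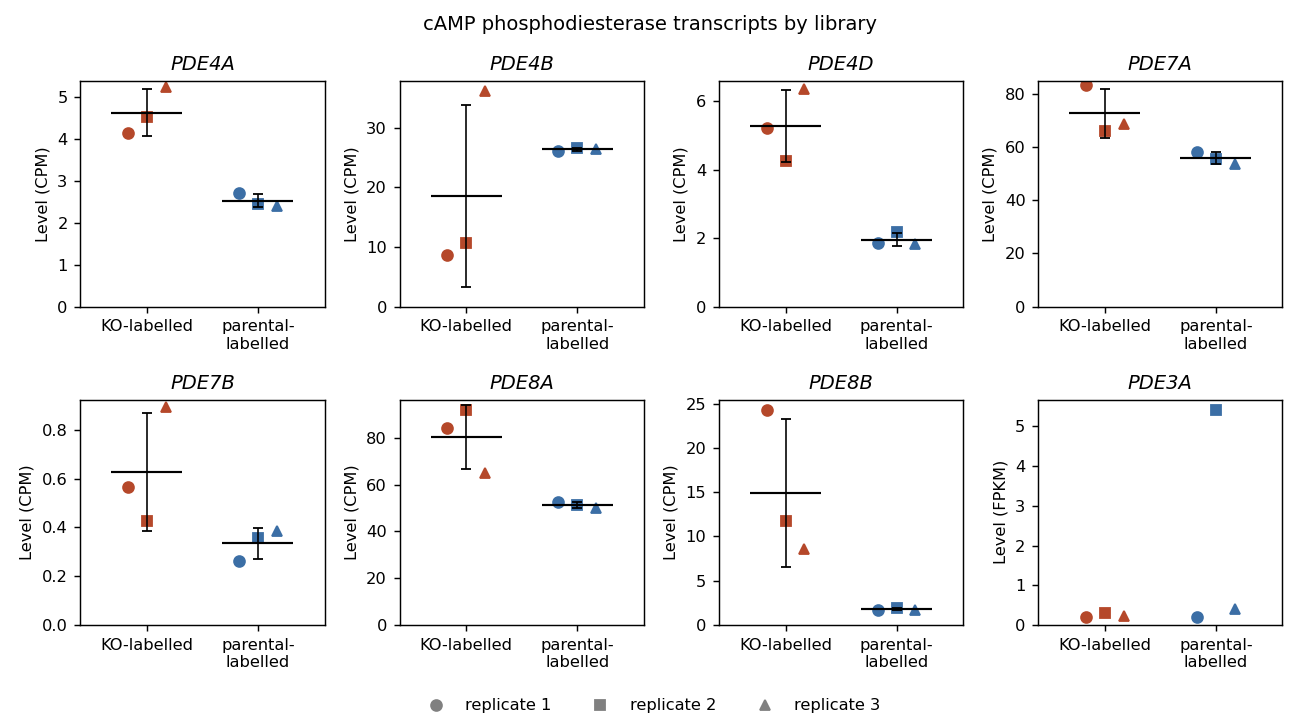
Level of each member in every library, in CPM for the 7 tested members and in the authors' FPKM for PDE3A; symbols mark replicates 1 to 3, horizontal lines the group mean and error bars the SD over 3 libraries (neither drawn for PDE3A). KO-labelled libraries lie above all parental-labelled ones for every tested member but PDE4B, where KO-labelled 3 had 36.2 CPM and the other KO-labelled libraries 8.70 and 10.7 CPM.

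PDE8B had the largest fold change of the tested members, and PDE8A was among the 2 members of highest level in both groups. PDE8B, known for its role in adrenal and thyroid cAMP control, had 646, 331 and 242 counts in KO-labelled 1 to 3, against 53, 48 and 54 counts in parental-labelled 1 to 3. Scaled to library size this was 24.3, 11.7 and 8.64 CPM in KO-labelled libraries, against 1.75, 1.91 and 1.74 CPM in parental-labelled ones. All KO-labelled libraries were above all parental-labelled ones, and among them KO-labelled 1 was highest and KO-labelled 3 lowest. PDE8B averaged 14.9 ± 8.32 CPM in KO-labelled and 1.80 ± 0.0952 CPM in parental-labelled libraries (SD, n = 3 each), with a log2 fold change of 3.05 (SE 0.42; edgeR quasi-likelihood test, adjusted p = 8.5e-04). Its spread within the KO-labelled group was wide, 2.82-fold between the highest and lowest library, and 96.7% of tested genes had a smaller SD of log2 CPM there. Without KO-labelled 1 the log2 fold change was 2.50 (edgeR, adjusted p = 2.0e-04).

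PDE8A, the more widely expressed gene of the pair, had 84.3, 91.9 and 65.2 CPM in KO-labelled 1 to 3, against 52.5, 51.4 and 50.1 CPM in parental-labelled 1 to 3. The groups did not overlap, and KO-labelled 3 was the KO-labelled library nearest to the parental-labelled ones. The log2 fold change was 0.65 (SE 0.12; edgeR, adjusted p = 0.00394). KO-labelled 3 was the lowest of its group for both PDE8 genes. On the log2 CPM scale it was 0.96 below the mean of the other KO-labelled libraries for PDE8B and 0.43 below it for PDE8A. The median size of that difference was 0.23 over all tested genes. For PDE8B, KO-labelled 1 stood further from the rest, with 24.3 CPM beside 11.7 and 8.64 CPM in KO-labelled 2 and 3. On the per-length scale PDE8B made up 22.0%, 12.4% and 12.2% of the summed PDE8 FPKM in KO-labelled 1 to 3, against 3.05%, 4.06% and 3.53% in parental-labelled 1 to 3. PDE8A thus remained the more abundant PDE8 transcript in each library.

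Of the PDE7 genes, PDE7A was abundant and PDE7B scarce. PDE7A, a rolipram-insensitive enzyme found in T cells among others, had 83.5, 66.4 and 68.9 CPM in KO-labelled 1 to 3, against 58.2, 55.7 and 53.8 CPM in parental-labelled 1 to 3. The groups did not overlap, and the gap between the lowest KO-labelled and the highest parental-labelled library was smaller than the range of the KO-labelled group. The log2 fold change was 0.38 (SE 0.10; edgeR, adjusted p = 0.0163), and the call was lost without parental-labelled 2 (edgeR, adjusted p = 0.0648) and without parental-labelled 3 (edgeR, adjusted p = 0.0698).

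PDE7B had 15, 12 and 25 counts in KO-labelled 1 to 3, against 8, 9 and 12 counts in parental-labelled 1 to 3. In CPM these were 0.565, 0.424 and 0.893 in KO-labelled libraries, against 0.264, 0.358 and 0.386 in parental-labelled ones, without overlap. The log2 fold change of 0.90 (95% CI 0.06 to 1.74) had an adjusted p of 0.0840 in the edgeR test. It passed the threshold without KO-labelled 2 (log2 fold change 1.12, edgeR adjusted p = 0.0485), and without KO-labelled 3, its highest library, the log2 fold change was 0.55 (edgeR adjusted p = 0.227). In FPKM the groups overlapped, with 0.118, 0.0627 and 0.142 in KO-labelled libraries and 0.0520, 0.0539 and 0.101 in parental-labelled ones.

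Within PDE4, whose products are the main rolipram-sensitive enzymes of most cells, PDE4D and PDE4A were higher in KO-labelled libraries, PDE4B was not called, and the genes differed in how far KO-labelled libraries resembled each other. PDE4D, known for binding beta-arrestins and A-kinase anchoring proteins, had 138, 120 and 178 counts in KO-labelled 1 to 3, against 56, 55 and 57 counts in parental-labelled 1 to 3. Its level was 5.20, 4.24 and 6.36 CPM in KO-labelled libraries, against 1.85, 2.19 and 1.83 CPM in parental-labelled ones. The groups were well apart and KO-labelled 3 was the highest library. PDE4D averaged 5.27 ± 1.06 CPM in KO-labelled and 1.96 ± 0.199 CPM in parental-labelled libraries (SD, n = 3 each), with a log2 fold change of 1.43 (SE 0.20; edgeR, adjusted p = 8.5e-04).

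PDE4A had 110, 128 and 147 counts in KO-labelled 1 to 3, against 82, 62 and 75 counts in parental-labelled 1 to 3. This was 4.14, 4.53 and 5.25 CPM in KO-labelled libraries, against 2.71, 2.46 and 2.41 CPM in parental-labelled ones. The groups did not overlap and the KO-labelled libraries varied about as much as those of a typical gene, with 45.6% of tested genes having a smaller SD of log2 CPM there. The log2 fold change was 0.88 (SE 0.15; edgeR, adjusted p = 0.00285). PDE4A is the PDE4 gene with the element in the printed promoter stretch, and a link of the element to its level was not tested.

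PDE4B, a PDE4 gene known to be induced by cAMP and by inflammatory stimuli, had the widest spread of the 7 tested members within the KO-labelled group. It had 231, 303 and 1013 counts in KO-labelled 1 to 3, against 792, 670 and 821 counts in parental-labelled 1 to 3. In CPM these were 8.70, 10.7 and 36.2 in KO-labelled libraries, against 26.1, 26.6 and 26.4 in parental-labelled ones. KO-labelled 1 and 2 were below every parental-labelled library, KO-labelled 3 was above every one, and the parental-labelled libraries were nearly equal. The highest KO-labelled library was 4.16-fold above the lowest, and 99.0% of tested genes had a smaller SD of log2 CPM in that group. In the parental-labelled group 3.18% had a smaller one. With all libraries the log2 fold change was -0.51 (95% CI -1.58 to 0.56; edgeR, adjusted p = 0.416). Without KO-labelled 3 it was -1.44 (edgeR, adjusted p = 3.3e-06), beside 52.6% of 17803 tested genes called in that fit. KO-labelled 3 was 1.90 above the mean of KO-labelled 1 and 2 on the log2 CPM scale for PDE4B, 0.43 above for PDE4D, 0.27 above for PDE4A and 0.78 above for PDE7B.

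The make-up of the PDE4 transcripts followed from these levels. PDE4B made up 48.5%, 58.8% and 73.9% of the summed PDE4 FPKM in KO-labelled 1 to 3, against 80.8%, 84.0% and 84.9% in parental-labelled 1 to 3. PDE4D made up 25.6%, 19.0% and 14.5% in KO-labelled libraries, against 8.26%, 8.27% and 6.34% in parental-labelled ones. PDE4A held 25.7%, 22.0% and 10.4% in KO-labelled libraries, against 10.9%, 7.70% and 8.06% in parental-labelled ones. PDE4B was the leading PDE4 transcript in each library, by less in KO-labelled 1 than in any other. PDE4C, a gene of restricted expression, had 1, 2 and 2 counts in KO-labelled libraries and 0, 0 and 1 in parental-labelled ones, a ratio of 5.38 with an exact 95% binomial interval of 0.602 to 255 that covers counting error only.

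Of the PDE3 genes, PDE3B was at the detection limit and PDE3A could be read in FPKM alone. PDE3B, known as the insulin-regulated cAMP phosphodiesterase of fat and liver, had no count in the KO-labelled group, where 3 counts over the group amount to 0.0367 CPM, and 1 count in parental-labelled 3. PDE3A, the heart and platelet enzyme inhibited by milrinone, had 0.207, 0.303 and 0.232 FPKM in KO-labelled 1 to 3, against 0.199, 5.41 and 0.395 FPKM in parental-labelled 1 to 3. Parental-labelled 2 stood far above the other 5 libraries, which lay close together, and no counts were at hand to set beside it. The limma test on log2(FPKM + 1) gave PDE3A a log2 fold change of -0.82 (adjusted p = 0.345), a value that rests on that library.

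**Figure D2:**
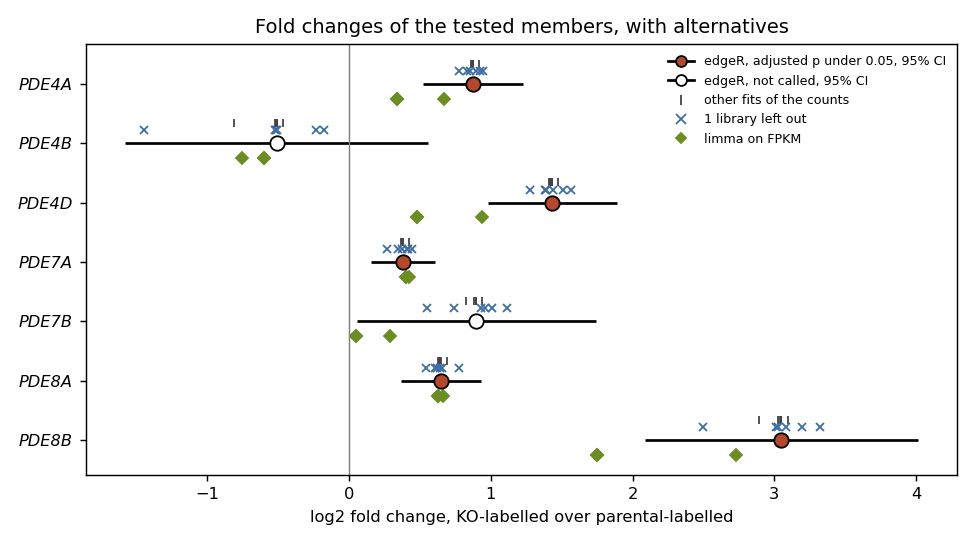
log2 fold change of the 7 tested members, KO-labelled over parental-labelled; circles are the edgeR fit with its 95% confidence interval (filled where the adjusted p is under 0.05), bars other fits of the counts, crosses fits with 1 library left out and diamonds limma fits of the FPKM table. PDE8B lies to the right of the others at 3.05, and PDE4B moves from -0.51 to -1.44 when KO-labelled 3 is left out.

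The 5 called members kept their direction in the FPKM table, which divides by transcript length. With low genes filtered, limma called 5 members on log2(FPKM + 1), beside 27.8% of 21421 genes, and 5 on log2(FPKM + 0.1), beside 24.3%. The log2 fold changes of low members were smaller on that scale, which adds a pseudocount, with 1.75 for PDE8B, 0.48 for PDE4D and 0.34 for PDE4A. Without a pseudocount the mean FPKM of PDE4D was 2.15-fold higher in KO-labelled libraries against 2.70-fold in the count fit, and its FPKM per CPM differed up to 1.64-fold between libraries. Without the filter on low values the calls of PDE4D (adjusted p = 0.135), PDE8A (adjusted p = 0.0798) and PDE7A (adjusted p = 0.0539) were lost in limma, and those of PDE8B and PDE4A remained, beside 12.7% of 34977 genes called.

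Levels between genes can be compared in FPKM, though only roughly where they are close. FPKM per CPM differed between libraries by 1.07-fold to 1.08-fold for PDE4B, PDE7A and PDE8A. For PDE8B, PDE4A, PDE4D and PDE7B it differed by 1.25-fold to 1.77-fold. In the KO-labelled group PDE8A (23.5 ± 4.83 FPKM) and PDE7A (21.8 ± 2.45) led, followed by PDE8B (4.46 ± 2.27), PDE4B (4.43 ± 3.64), PDE4D (1.21 ± 0.440) and PDE4A (1.10 ± 0.126) (SD, n = 3). The ranges of PDE8A and PDE7A overlapped, as did those of PDE8B and PDE4B and those of PDE4D and PDE4A. In the parental-labelled group PDE7A (16.2 ± 0.725 FPKM) and PDE8A (14.6 ± 0.213) led without overlap, then PDE4B (6.17 ± 0.275), and PDE4A (0.657 ± 0.116), PDE4D (0.564 ± 0.0768) and PDE8B (0.535 ± 0.0719) followed with overlapping neighbours (SD, n = 3). PDE3A falls in that order only as far as parental-labelled 2 carries it. The near-equal KO-labelled means of PDE8B and PDE4B hid opposite orders by library. PDE8B had 6.96, 3.89 and 2.52 FPKM in KO-labelled 1 to 3, and PDE4B 2.09, 2.58 and 8.62 FPKM in the same libraries. PDE8B was thus above PDE4B in KO-labelled 1 and 2, and below it in KO-labelled 3 and in each parental-labelled library.

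Summed over the 10 genes, the level was 60.9, 56.5 and 53.3 FPKM in KO-labelled 1 to 3, against 39.8, 43.8 and 38.8 FPKM in parental-labelled 1 to 3. The lowest KO-labelled sum was above the highest parental-labelled one. Leaving PDE3A out, the sum was 56.6 ± 3.87 FPKM in KO-labelled and 38.8 ± 0.707 FPKM in parental-labelled libraries (SD, n = 3 each). PDE7A and PDE8A together made up 81.0%, 84.7% and 72.7% of the sum in KO-labelled libraries, against 80.0%, 69.1% and 78.0% in parental-labelled ones. The share of PDE8B was 11.4%, 6.88% and 4.74% in KO-labelled libraries, against 1.17%, 1.39% and 1.37% in parental-labelled ones. The PDE4 share was 7.09%, 7.79% and 21.9% in KO-labelled libraries, against 18.2%, 17.1% and 19.4% in parental-labelled ones, so that KO-labelled 3 lay beside the parental-labelled libraries and KO-labelled 1 and 2 well below them. A sum of transcripts is not a sum of enzyme activity, and no test was made on it.

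**Figure D3:**
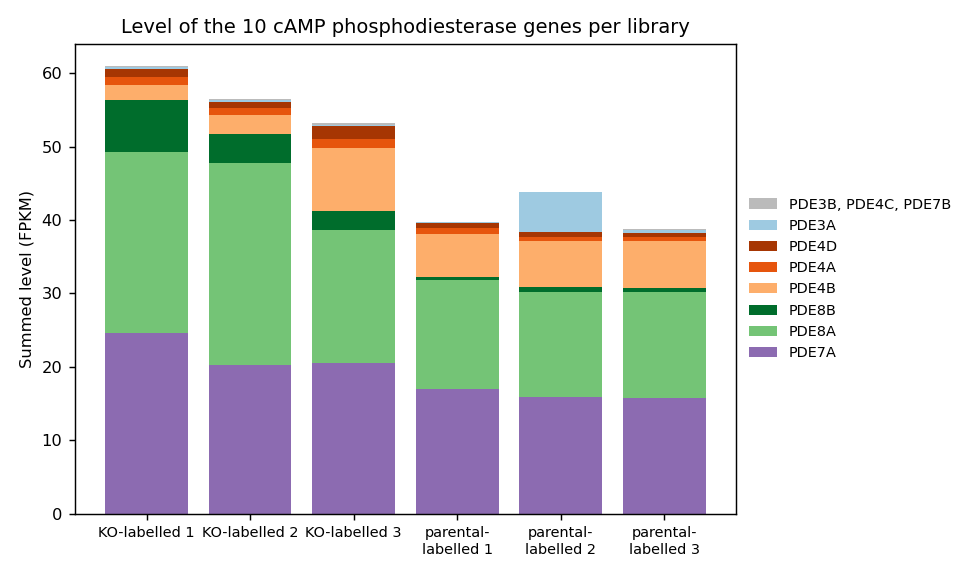
Stacked level of the 10 members in FPKM in each library, KO-labelled 1 to 3 and then parental-labelled 1 to 3; each colour is 1 gene, and PDE3B, PDE4C and PDE7B are joined. The sums are 60.9, 56.5 and 53.3 in KO-labelled libraries and 39.8, 43.8 and 38.8 in parental-labelled ones, the PDE8B layer is visible in the KO-labelled libraries, and the PDE3A layer of parental-labelled 2 is 5.41 FPKM.

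Uncharacterised loci and FAM, TMEM and KIAA genes were passed over. Of the rest, MAML1, a Notch coactivator, had the pattern over the 6 libraries most like that of PDE8B. Its Pearson r of log2 CPM was 0.9995, followed by the protease gene ADAMTS13 (0.998) and the glucosyltransferase gene POGLUT1 (0.997). Their log2 fold changes were 0.23, 1.36 and 0.52, against 3.05 for PDE8B, so the likeness is not one of size. ADAMTS13 was low, with 1.14 to 1.81 CPM in KO-labelled and 0.514 to 0.596 CPM in parental-labelled libraries. The 6 points of each r are the same libraries in 2 groups, and 1016 of 17419 genes had an r above 0.95 with PDE8B. These values are a description.

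Other genes of the cAMP pathway were read in 8 lists of 76 genes, of which 57 were tested. These lists too were chosen with earlier results of these data known, so their share called is a description. KO-labelled libraries had higher levels of 19 and lower levels of 17 (63.2% called), where 40.8% of all tested genes were called, 21.0% higher and 19.8% lower. The share called was 40.0% in the G protein list and 35.7% in the CREB arm, near or below that of all genes. All values named here are log2 fold changes with their SE. Of the other cyclic nucleotide phosphodiesterases, 1 of 6 genes for dual-specificity enzymes was tested, PDE1C, and it was called lower from 9 to 14 counts in KO-labelled and 20 to 33 counts in parental-labelled libraries (-1.12, SE 0.27). The FPKM table did not show this, with 0.164, 0.401 and 0.0932 FPKM in KO-labelled and 0.158, 0.120 and 0.221 FPKM in parental-labelled libraries, and limma on log2(FPKM + 1) gave PDE1C 0.057 (adjusted p = 0.735). Of 8 genes of the PDE5, PDE6 and PDE9 families 3 were tested, with cGMP-specific PDE5A lower (-0.65, SE 0.19), PDE9A higher (0.47, SE 0.15) and 1 not called. The call of PDE5A was lost in 7 of 15 alternatives and that of PDE9A in 8 of 15. The adenylyl cyclases, which make cAMP, had 2 higher and 1 lower of 5 tested, with ADCY7 at 2.21 (SE 0.18), ADCY3 at 0.23 (SE 0.06) and ADCY9 at -0.31 (SE 0.10). ADCY7 was called in 15 of 15 alternatives, ADCY3 lost its call in 5 and ADCY9 in 7. The G protein alpha subunits that act on cyclases had 0 higher and 2 lower of 5 tested, both of inhibitory type, GNAI1 at -0.83 (SE 0.17) and GNAI3 at -0.32 (SE 0.06). Protein kinase A subunits and inhibitors had 4 higher and 3 lower of 8 tested, with the regulatory subunit PRKAR2B at -1.53 (SE 0.12) and the inhibitors PKIB at 2.96 (SE 0.32) and PKIG at 0.80 (SE 0.10). PKIB had 37, 55 and 52 counts in KO-labelled libraries, against 5, 4 and 10 counts in parental-labelled ones, and so reached the test through the KO-labelled group.

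Partners that place or bind phosphodiesterases had 3 higher and 4 lower of 11 tested. PDE4DIP, myomegalin, which anchors PDE4D at the centrosome and Golgi, was lower in KO-labelled libraries (-0.53, SE 0.08). It had 95.6, 79.7 and 89.7 CPM there, against 131.9, 128.0 and 121.9 CPM in parental-labelled libraries. The anchoring protein AKAP13 was at 0.79 (SE 0.08) and ARRB2, a beta-arrestin that brings PDE4D to receptors, at 0.62 (SE 0.08). Other cAMP effectors and exporters had 5 higher and 4 lower of 10 tested, with the cAMP exporter ABCC4 at 2.10 (SE 0.11), the cyclic nucleotide-gated channel gene HCN4 at 3.63 (SE 0.31) and the exchange factor RAPGEF3 (EPAC1) at -0.95 (SE 0.14). The CREB arm had 4 higher and 1 lower of 14 tested, with the CREB coactivators CRTC1 at 0.68 (SE 0.09) and CRTC3 at 0.79 (SE 0.13) and the CREB target SIK1 at 0.96 (SE 0.14). The remaining coactivator of that family, CRTC2, was lower (-0.40, SE 0.07). Adjusted p-values of the called genes named from these lists ran from 7.8e-06 for ABCC4 to 0.0391 for PDE9A (edgeR quasi-likelihood test). Besides the losses given above, PDE4DIP lost its call in 3 of 15 alternatives, GNAI1 in 2, and GNAI3 and PKIG in 1 each. RABGAP1L, the host gene of GPR52, lost its call in 3 of 15.

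**Figure D4:**
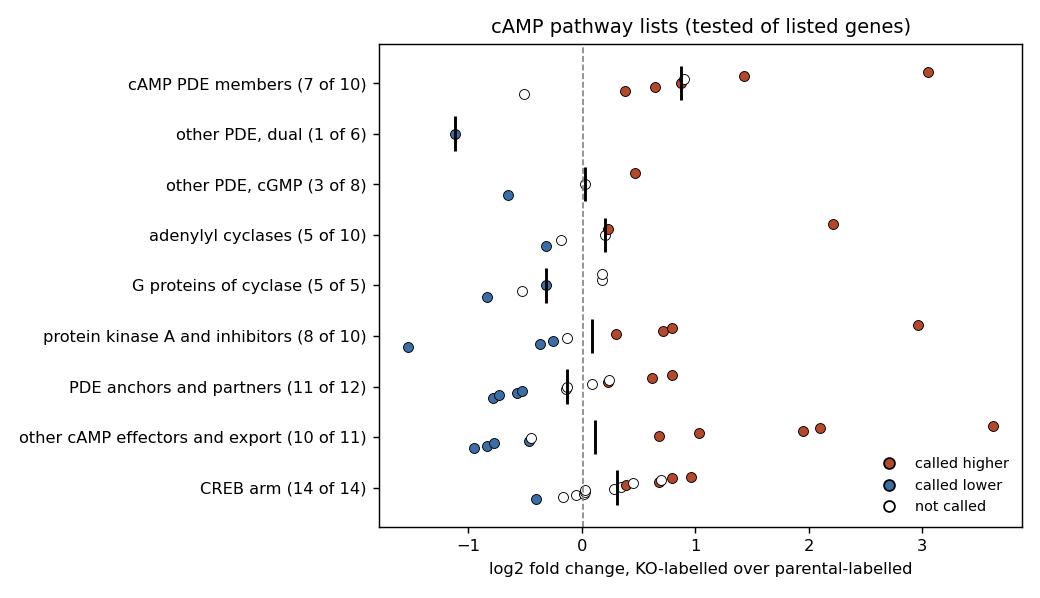
log2 fold change of each tested gene in the phosphodiesterase members and 8 other cAMP pathway lists, KO-labelled over parental-labelled, with the number tested of those listed; black bars are list medians and the dashed line is the median of all tested genes. The members' median is 0.88 with no called gene below 0. The G protein list (0 higher, 2 lower of 5 tested) and the dual phosphodiesterase list (1 tested, lower) also have calls on 1 side only. The remaining lists hold called genes on both sides.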

How the data were processed

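Polyadenylated RNA of 6 cultures was sequenced after Trizol and column extraction with a directional library kit, per the labels' protocols. Of the authors' tables, the first holds counts by gene symbol, deposited as whole numbers whose totals differ between libraries, and the second holds FPKM, scaled by the authors for length and depth. Build hg19 and the tools Cufflinks 2.0.2, STAR 2.4.0f1 and SAMtools 0.1.19 are listed, without roles, in the submitters' processing notes. Annotation, counter and strand setting were not given in the sources used here. Where counting ignored strand, a gene and its antisense partner share reads.

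From the counts, genes were kept by edgeR 4.0.16 filterByExpr (minimum count 10, minimum total 15), scaled by TMM and put to its quasi-likelihood F test over 17420 genes in R 4.3.3, with Benjamini-Hochberg adjustment and a threshold of 0.05. The SE is the log2 fold change divided by the square root of F. CPM use TMM library sizes, and log2 CPM a prior count of 2. limma 3.58.1 was run on log2(FPKM + 1) and log2(FPKM + 0.1) for genes of at least 0.1 FPKM in 3 libraries. Other alternatives were DESeq2 1.42.0, its size factors, library totals, limma voom, other filters and leaving out each library. The edgeR steps were tested on simulated data. Confidence intervals of log2 fold changes were built from that SE and include the spread between libraries. The binomial interval of PDE4C and the floors of 3 counts cover counting error only.

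The members and lists were chosen with earlier results of these data known. All 10 members are named, and of each other list up to 3 called genes of smallest adjusted p, plus CRTC2, ESR1 and PDE11A, which were named after their values were seen. The 3 genes most like PDE8B were taken by Pearson r, passing over uncharacterised loci and FAM, TMEM and KIAA genes. Replicate numbers follow the order of deposition and pair nothing.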

Additional observations from a re-analysis of the deposited data

How the results depend on the processing

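In the count fits (DESeq2 size factors, library totals, no filter on low counts, at least 1 CPM in 3 libraries, DESeq2 and limma voom) and in both filtered FPKM fits, 5 members were called, and leaving out 1 library gave 4 to 6. The limma fit of log2(FPKM + 1) without a filter on low values called 2 members, 19 genes of the related lists in place of 36, and 4453 genes in all in place of 7105. The related lists had 21 calls on log2(FPKM + 0.1). No tested member changed direction in any of these fits. Of 23 other named genes, PDE1C did, with log2 fold changes of 0.057 on log2(FPKM + 1), filtered or not, and 0.16 on log2(FPKM + 0.1), and the cause was not tested. Over the fits with 1 library left out, 4879 to 9367 genes were called in all and 24 to 40 in the related lists, and the ratio of summed FPKM, KO-labelled over parental-labelled, was 1.34 to 1.45, with 1.39 for all libraries, 1.41 in summed CPM and 1.46 without PDE3A, a choice made after seeing the data. PDE4C and PDE3B had 5 and 0 counts over the KO-labelled group, so differences in them were not detectable at this depth. No paired analysis was possible because the labels give the groups no shared replicate numbers.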

Other observations

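Among phosphodiesterases outside the 10 genes, PDE5A, the cGMP-specific enzyme inhibited by sildenafil, had 21.0, 19.3 and 32.2 CPM in KO-labelled 1 to 3, against 39.0, 41.0 and 33.7 CPM in parental-labelled 1 to 3. As for PDE4B, KO-labelled 3 was the KO-labelled library nearest to the parental-labelled ones. PDE9A, which is also cGMP-specific, had 23.5, 17.1 and 25.9 CPM in KO-labelled 1 to 3, against 15.1, 15.9 and 16.8 CPM in parental-labelled 1 to 3. PDE11A, a dual-specificity enzyme, had 5, 1 and 18 counts in KO-labelled 1 to 3, against 6, 2 and 3 counts in parental-labelled 1 to 3, and was not tested.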
